A study of Fagopyrum tataricum with 12 samples.

Results

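Photosynthetic carbon fixation was followed in seedlings of Tartary buckwheat (Fagopyrum tataricum), cultivar Dingku1, held in 20% PEG-6000, a polymer that draws water out of roots and so imitates drought. The genes were those whose deposited pathway annotation named carbon fixation in photosynthetic organisms, 95 in number, joined by genes described as ribulose bisphosphate carboxylase. The description added 3 genes, all Rubisco activases, which gave 98 of the 26750 genes in the count table. Of these, 38 were classed by description as plastid Calvin cycle genes, a class that includes the GAPCP1 genes of a glycolytic type. A further 20 encode cytosolic forms of Calvin cycle reactions, and 36 encode enzymes that make or use C4 acids. Ribose-5-phosphate isomerases with no stated location number 2, and 2 genes fall outside these classes. The last 2 are GGAT2, a glutamate-glyoxylate aminotransferase of photorespiration in Arabidopsis, and a gene without a description.

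RNA was sequenced from leaf and stem together at the 2-leaf stage in 4 groups of 3 libraries. The groups were control seedlings in Hoagland's nutrient (0 h) and seedlings after 2, 4 and 8 h in PEG, all grown hydroponically. All 12 libraries came from 1 cultivar. Nothing in the labels ties the replicates to separate plants, so p-values measure the spread between these libraries, which may be technical. Libraries held 30468104 to 37395814 counted reads. Control libraries stood at 0 h only, so time in PEG and time of day cannot be told apart in any result below.

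In the Calvin cycle, Rubisco joins CO2 to ribulose bisphosphate, phosphoglycerate kinase and glyceraldehyde-3-phosphate dehydrogenase reduce the product to triose phosphate, and aldolases, bisphosphatases, transketolase, isomerases and phosphoribulokinase rebuild the acceptor. Several of these steps have cytosolic counterparts, encoded by separate nuclear genes, that serve glycolysis and sucrose synthesis. The same annotation map holds enzymes of the C4 shuttle, and in a C3 plant such as buckwheat these replenish organic acids and move carbon and nitrogen between compartments. Levels are given as FPKM, reads relative to coding length and to the total of counted reads, after scaling by the TMM method, so that genes can be compared per length. A gene was called higher or lower when its p-value from the edgeR quasi-likelihood test, adjusted by the Benjamini-Hochberg method over all 22063 genes tested, was under 0.05. Of the 98 genes, 74 had enough reads to be tested.

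Most plastid Calvin cycle genes fell at each time in PEG, while the median change of the cytosolic forms stayed near that of all tested genes. By summed level the cytosolic forms stood at 3789 FPKM at 0 h, 4134 at 2 h, 3592 at 4 h and 2515 at 8 h. At 2 h, 27 of the 74 genes were higher and 35 lower than at 0 h, where 31.6% of all tested genes were higher and 31.7% lower. Among the 26 plastid genes tested 4 were higher and 19 lower, with a median log2 fold change of -0.72. The 14 cytosolic forms tested divided into 6 higher and 5 lower, with a median of -0.01, and the 31 C4-acid enzyme genes tested into 17 higher and 8 lower, with a median of 0.45. The median over all tested genes was 0.00.

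At 4 h, 24 of the 74 genes were higher and 42 lower than at 0 h, against 35.1% higher and 37.7% lower among all tested genes. The plastid genes had 4 higher and 20 lower, with a median log2 fold change of -1.34, and the cytosolic forms 4 higher and 7 lower, with a median of -0.05. The C4-acid enzyme genes had 16 higher and 12 lower, with a median of 0.56, beside -0.04 over all tested genes. At 8 h, 22 of the 74 were higher and 39 lower, against 36.4% and 34.5% of all tested genes. Here the plastid genes had 2 higher (1 without control library 3) and 21 lower, with a median of -2.50. The cytosolic forms had 6 higher and 4 lower with a median of -0.06, and the C4-acid enzyme genes 14 higher and 11 lower with a median of 0.13, beside 0.03 over all tested genes. Scaling by library totals alone moved the median of all tested genes at 8 h to 0.18 and the higher share of all calls to 62.5%, beside 51.4% under TMM, and then 25 of the 74 genes were higher and 36 lower, with 3 plastid genes higher and 19 lower. The 3 comparisons share the same control libraries.

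**Figure D1:**
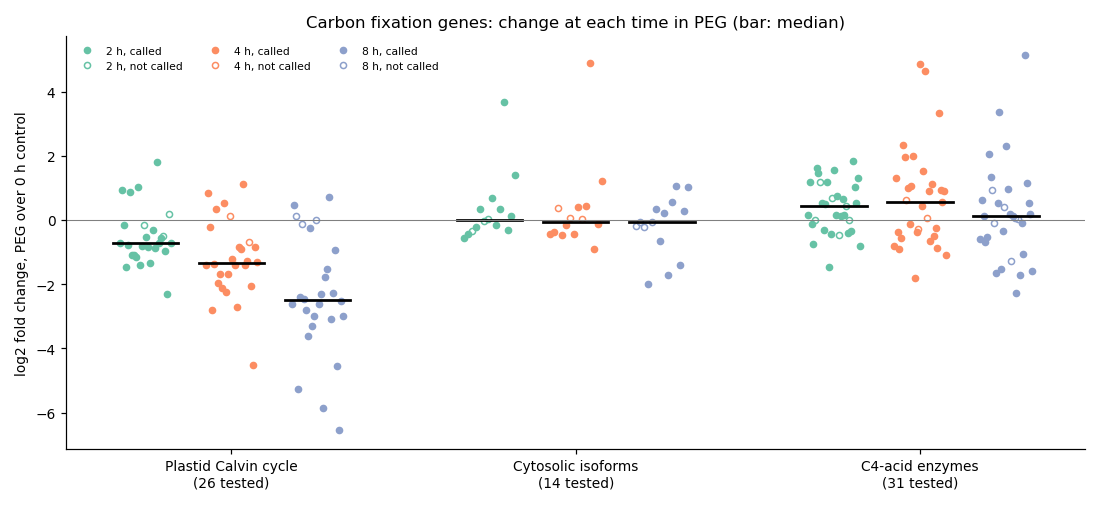
Log2 fold change of each tested gene, PEG over the 0 h control, at 2, 4 and 8 h, for plastid Calvin cycle genes, cytosolic isoforms and C4-acid enzymes. Filled points passed the edgeR test, open points did not, and the bar is the median, which in the plastid class stood at -0.72, -1.34 and -2.50.

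Large falls were most frequent among the plastid genes. Counting only called genes that changed by at least 2-fold, 7 of the 26 plastid genes were lower at 2 h, 16 at 4 h and 19 at 8 h. Over all tested genes the same rule called 8.76% lower at 2 h, 14.1% at 4 h and 14.8% at 8 h. None of the 14 cytosolic forms was lower by 2-fold at 2 or 4 h, and 3 were at 8 h. For the C4-acid enzymes the rule counted 1 gene lower at 2 h, 2 at 4 h and 6 at 8 h. It counted 8, 10 and 6 genes higher at those times, beside 9.83%, 12.9% and 12.2% of all tested genes. The 10 at 4 h included weakly expressed genes, with 4 h means of 1.92 FPKM for PPC4 (evm.TU.Ft3.2580), 1.67 for evm.TU.Ft8.133, 0.502 for evm.TU.Ft6.3593 and 0.434 for evm.TU.Ft5.423. Outside 4 h evm.TU.Ft5.423 had at most 0.0156 FPKM in any library, so only its 4 h reads led to its being tested.

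All 98 genes together took 6.54% ± 0.184 of counted reads at 0 h, 4.03% ± 0.0559 at 2 h, 2.73% ± 0.00857 at 4 h and 1.59% ± 0.0154 at 8 h (SD, n = 3). Plastid Calvin cycle genes accounted for most of that loss, with 5.5% of reads at 0 h, 2.9% at 2 h, 1.56% at 4 h and 0.718% at 8 h. The share of the cytosolic forms was 0.367% at 0 h, 0.412% at 2 h, 0.34% at 4 h and 0.277% at 8 h. The C4-acid enzymes took 0.569% at 0 h, 0.623% at 2 h, 0.749% at 4 h and 0.562% at 8 h, so they ended near where they began.

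Rubisco itself was represented by its small chain, which is encoded in the nucleus and completes the enzyme with the large chain made in the chloroplast. The 2 small chain genes, both named RBCS6, were the highest and the second highest of all genes at 0 h when ranked by FPKM. RBCS6 (evm.TU.Ft5.2621) had 24378, 24556 and 26184 FPKM at 0 h, 14272, 13545 and 13893 at 2 h, 9529.6, 9617 and 9538 at 4 h, and 5097, 5205 and 4948 at 8 h. Its neighbour in the identifier order, RBCS6 (evm.TU.Ft5.2620), had 17539.6, 18119.9 and 18877 FPKM at 0 h, 12909, 12193 and 12351 at 2 h, 7679, 7780.3 and 7847 at 4 h, and 2947, 3052 and 2862 at 8 h. The 4 groups did not overlap for either gene, and each later group was lower. The log2 fold changes were -0.85, -1.39 and -2.30 at 2, 4 and 8 h for the first gene and -0.54, -1.23 and -2.62 for the second, with standard errors of 0.030 to 0.033. Both still ranked 10 and 18 among all genes at 8 h. The ratio of the first to the second was 1.38 ± 0.0193 at 0 h, 1.11 ± 0.00993 at 2 h, 1.23 ± 0.0135 at 4 h and 1.72 ± 0.014 at 8 h (SD, n = 3). Neighbouring genes of 1 family may share reads, which was not tested, so the level of each of the pair is uncertain.

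Rubisco activase, the ATPase that clears inhibitory sugar phosphates from the active site, fell much further than the small chain. RCA1 (evm.TU.Ft5.2681) had 9708, 9937 and 10536 FPKM at 0 h, 4055, 3818 and 3979 at 2 h, 1558, 1526 and 1483 at 4 h, and 177, 177 and 168 at 8 h. It ranked 5 among all genes at 0 h and 966 at 8 h. At 8 h it was 57.9-fold lower than at 0 h, a log2 fold change of -5.86 with a standard error of 0.040 (edgeR adjusted p = 1.01e-48). RCA1 transcript per RBCS6 transcript, taken within each library as the ratio of FPKM, was 0.233 ± 0.00112 at 0 h, 0.15 ± 0.0017 at 2 h, 0.0879 ± 0.00263 at 4 h and 0.0216 ± 0.000312 at 8 h. The ratio thus dropped at every step, by amounts far above its spread over libraries.

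The other activase genes were minor. RCA (evm.TU.Ft5.2760) averaged 61.9 ± 3.15 FPKM at 0 h, 50.2 ± 1.71 at 2 h, 34.4 ± 0.518 at 4 h and 18.2 ± 1.22 at 8 h, and was called lower at all 3 times. A second gene named RCA1 (evm.TU.Ft8.2812) averaged 8.38 FPKM at 0 h, 9.55 at 2 h, 4.7 at 4 h and 1.44 at 8 h, and was called lower at 4 and 8 h but not called at 2 h (log2 fold change 0.19, edgeR adjusted p = 0.14).

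For the Rubisco large chain, 12 annotated entries together held 60 counted reads over the 12 libraries, with 1 to 17 reads each. None was tested, so these libraries carry no usable measurement of the large chain.

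**Figure D2:**
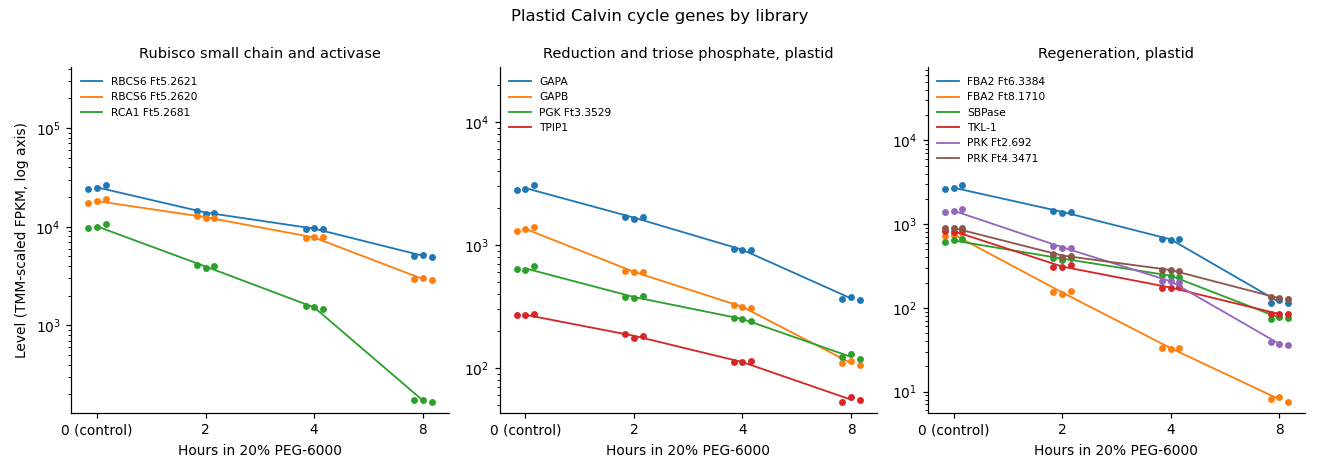
TMM-scaled FPKM on a log axis of the main plastid Calvin cycle genes at 0, 2, 4 and 8 h, drawn at even spacing, with 1 point per library and a line through the group means; identifiers are given without their evm.TU. prefix. RCA1 and FBA2 evm.TU.Ft8.1710 have the steepest lines, ending at 174 and 8.07 FPKM at 8 h.

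In the reduction phase, the A and B subunits of plastid glyceraldehyde-3-phosphate dehydrogenase fell at different rates. GAPA (evm.TU.Ft4.845) had 2801, 2863 and 3053 FPKM at 0 h, 1692, 1637 and 1685 at 2 h, 922, 909 and 914 at 4 h, and 364, 381 and 360.1 at 8 h. GAPB (evm.TU.Ft4.6068), the subunit whose C-terminal extension allows redox control of the enzyme, had 1303, 1343 and 1415 FPKM at 0 h, 616, 599 and 602 at 2 h, 323, 314 and 306 at 4 h, and 109, 114 and 106 at 8 h. At 8 h GAPA was 7.89-fold and GAPB 12.3-fold lower than at 0 h. GAPA exceeded GAPB by a ratio of 2.15 ± 0.0141 at 0 h, 2.76 ± 0.0373 at 2 h, 2.91 ± 0.07 at 4 h and 3.35 ± 0.0276 at 8 h (SD, n = 3), and the libraries at each time in PEG lay above all those at 0 h.

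The main plastid phosphoglycerate kinase (evm.TU.Ft3.3529), which phosphorylates 3-phosphoglycerate, averaged 646 ± 26.0 FPKM at 0 h, 378 ± 8.01 at 2 h, 250.5 ± 6.66 at 4 h and 123 ± 5.66 at 8 h. Plastid triose phosphate isomerase, TPIP1 (evm.TU.Ft6.1680), averaged 271 ± 5.24 FPKM at 0 h, 183 ± 6.44 at 2 h, 112 ± 1.22 at 4 h and 55.3 ± 2.63 at 8 h. Both were thus lower at all 3 times, 5.24-fold and 4.9-fold at 8 h.

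Regeneration of the acceptor held some of the largest falls of the cycle beside that of RCA1. FBA2 (evm.TU.Ft8.1710), one of the plastid aldolases that condense triose phosphates, had 723, 739.8 and 792 FPKM at 0 h, 153, 148 and 157 at 2 h, 33.1, 32.2 and 33.5 at 4 h, and 8.15, 8.56 and 7.51 at 8 h. Its log2 fold change of -6.54 at 8 h, with a standard error of 0.053, was the most negative among the 74 genes tested (edgeR adjusted p = 1.58e-46) and came to 93.2-fold. The more abundant FBA2 (evm.TU.Ft6.3384) had 2594, 2668 and 2896 FPKM at 0 h, 1443, 1368 and 1393 at 2 h, 655, 651 and 665 at 4 h, and 114, 123 and 114 at 8 h, a 23.3-fold fall by the last time. The ratio of the abundant to the minor form was 3.62 ± 0.0336 at 0 h, 9.19 ± 0.292 at 2 h, 20.0 ± 0.227 at 4 h and 14.5 ± 0.602 at 8 h, so the minor form lost more at first and the abundant form more between 4 and 8 h.

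Phosphoribulokinase makes the CO2 acceptor and has no cytosolic counterpart. Its gene evm.TU.Ft2.692 had 1403, 1431 and 1497 FPKM at 0 h, 548, 515 and 525 at 2 h, 210.3, 211 and 201 at 4 h, and 38.7, 36.6 and 35.9 at 8 h. The second gene, evm.TU.Ft4.3471, had 895, 893 and 905 FPKM at 0 h, 437, 409 and 418 at 2 h, 285, 285 and 278 at 4 h, and 134, 130.1 and 126 at 8 h. The order of the pair changed over time. The ratio of evm.TU.Ft4.3471 to evm.TU.Ft2.692 was 0.622 ± 0.017 at 0 h, 0.796 ± 0.00226 at 2 h, 1.37 ± 0.0172 at 4 h and 3.51 ± 0.051 at 8 h, as evm.TU.Ft4.3471 fell 6.91-fold by 8 h and evm.TU.Ft2.692 39.0-fold.

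The bisphosphatases moved in step. Sedoheptulose-1,7-bisphosphatase (evm.TU.Ft6.1257), which commits carbon to regeneration, averaged 637 ± 28.5 FPKM at 0 h, 387 ± 13.5 at 2 h, 241 ± 6.19 at 4 h and 76.0 ± 2.15 at 8 h. The main plastid fructose-1,6-bisphosphatase (evm.TU.Ft8.2984) averaged 344 ± 18.1 FPKM at 0 h, 208 ± 7.6 at 2 h, 138 ± 0.878 at 4 h and 43.0 ± 0.949 at 8 h. Their ratio stayed between 1.75 and 1.87 in the group means while the genes were 8.38-fold and 8-fold lower at 8 h than at 0 h.

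Transketolase moves carbon units between sugar phosphates, and TKL-1 (evm.TU.Ft4.765) averaged 824 ± 33.2 FPKM at 0 h, 311 ± 9.29 at 2 h, 174 ± 1.57 at 4 h and 84.3 ± 0.486 at 8 h. The plastid pentose phosphate enzymes fell as well. Ribulose-phosphate 3-epimerase, RPE (evm.TU.Ft1.2295), averaged 1006 ± 5 FPKM at 0 h, 612 ± 13.3 at 2 h, 383 ± 4.55 at 4 h and 165 ± 3.75 at 8 h. Ribose-5-phosphate isomerase, RPI3 (evm.TU.Ft3.4157), averaged 165 ± 9.54 FPKM at 0 h, 77.3 ± 2.76 at 2 h, 42.3 ± 1.96 at 4 h and 29.8 ± 0.449 at 8 h. The isomerases without a stated location were also called lower at all 3 times, RPI2 (evm.TU.Ft6.1076) with 65.2, 34.8, 24.5 and 18.4 FPKM at 0, 2, 4 and 8 h and RPI1 (evm.TU.Ft1.536) with 11.0, 8.26, 4.46 and 3.69 FPKM.

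In several enzymes a minor plastid gene did not follow the main one. FBA3 (evm.TU.Ft4.6075), another plastid aldolase, had 72.8, 65.9 and 67.3 FPKM at 0 h, 141, 143 and 139 at 2 h, 101, 94.9 and 99.6 at 4 h, and 58.8, 57.1 and 58.8 at 8 h. It was called higher at 2 and 4 h and lower at 8 h, with log2 fold changes of 1.04, 0.52 and -0.24. A second plastid transketolase (evm.TU.Ft1.2867) was called higher at all 3 times, with 24.0 ± 0.553 FPKM at 0 h, 45.4 ± 1.54 at 2 h, 42.6 ± 1.03 at 4 h and 33.5 ± 1.65 at 8 h. The second plastid fructose-1,6-bisphosphatase, FBP (evm.TU.Ft5.133), averaged 10.9, 9.75, 11.8 and 10.9 FPKM at 0, 2, 4 and 8 h and was not called at any of them against 0 h. PGK1 (evm.TU.Ft2.1194) averaged 14.1, 12.6, 12.2 and 15.2 FPKM at 0, 2, 4 and 8 h and was called lower by a small amount at 2 and 4 h only. Each of these minor genes was far below the main gene of its enzyme at 0 h.

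The glycolytic type of plastid dehydrogenase, GAPCP1, takes no part in the Calvin cycle in Arabidopsis. GAPCP1 (evm.TU.Ft3.3550) averaged 10.7 ± 0.454 FPKM at 0 h, 19.5 ± 1.11 at 2 h, 13.5 ± 0.829 at 4 h and 9.7 ± 0.653 at 8 h, and was called higher at 2 and 4 h. The neighbours GAPCP1 (evm.TU.Ft5.3034) and GAPCP1 (evm.TU.Ft5.3033) stayed under 5 FPKM, and the split of reads between them is uncertain. At all 3 times evm.TU.Ft5.3034 was called higher and evm.TU.Ft5.3033 lower. Without the 3 GAPCP1 genes, 23 plastid genes were tested, of which 18 were lower at 2 h, 19 at 4 h and 20 at 8 h. The higher genes then numbered 2 at 2 h, 2 at 4 h and 1 at 8 h, beside 4, 4 and 2 with them. The median log2 fold changes without GAPCP1 were -0.73, -1.39 and -2.61 at 2, 4 and 8 h.

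Cytosolic forms followed no common course. Cytosolic glyceraldehyde-3-phosphate dehydrogenase serves glycolysis, and its main gene GAPC (evm.TU.Ft2.5799) had 1247, 1224 and 1189.9 FPKM at 0 h, 1230.4, 1251 and 1241 at 2 h, 875, 901 and 904 at 4 h, and 797, 749.5 and 765 at 8 h. It was not called at 2 h (log2 fold change 0.02 with a standard error of 0.032) and was lower at 4 and 8 h, with log2 fold changes of -0.45 and -0.66. GAPC (evm.TU.Ft2.3994) averaged 489 ± 7.25 FPKM at 0 h, 618 ± 5.85 at 2 h, 434 ± 2.34 at 4 h and 473 ± 10.0 at 8 h. Its change at 8 h, -0.05 and not called, became 0.10 and called higher when libraries were scaled by their totals alone, and -0.06 and called lower in DESeq2 (adjusted p = 0.0285).

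A single cytosolic gene stood apart from these. GAPC2 (evm.TU.Ft6.77) had 13.8, 15.7 and 17.0 FPKM at 0 h, 188, 219 and 188 at 2 h, 455, 449 and 472 at 4 h, and 30.6, 33.9 and 32.6 at 8 h. Its log2 fold change was 3.67 at 2 h, 4.89 at 4 h and 1.06 at 8 h (standard errors 0.060 to 0.066), a 29.6-fold rise at 4 h followed by a fall of 3.83 on the log2 scale between 4 and 8 h. Relative to GAPC evm.TU.Ft2.5799 it stood at 0.0127 at 0 h, 0.16 at 2 h, 0.513 at 4 h and 0.0421 at 8 h. Of the remaining cytosolic dehydrogenases, GAPC2 (evm.TU.Ft2.4421) averaged 35.4, 34.5, 36.7 and 44.4 FPKM at 0, 2, 4 and 8 h and was called higher at 8 h only. The neighbours GAPC1 (evm.TU.Ft1.1991) and GAPC2 (evm.TU.Ft1.1990) were called lower at 2 and 4 h and averaged between 7.48 and 17.3 FPKM, and GAPC2 (evm.TU.Ft1.2602) averaged about 1 FPKM or less and was not called.

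Cytosolic aldolases differed among themselves. Cytoplasmic isozyme 1 (evm.TU.Ft4.2255) had 499.8, 535 and 549 FPKM at 0 h, 489, 472 and 462 at 2 h, 557, 536 and 531 at 4 h, and 159.8, 163 and 159 at 8 h, so that its 3.29-fold fall relative to 0 h came late, after 4 h. FBA6 (evm.TU.Ft8.728) had 52.1, 51.5 and 54.3 FPKM at 0 h, 138, 141 and 136 at 2 h, 123, 119.6 and 119.7 at 4 h, and 106, 110.3 and 106 at 8 h, above the control at each time. FBA8 (evm.TU.Ft3.138) averaged 213 ± 7.44 FPKM at 0 h, 338 ± 1.11 at 2 h, 283 ± 10.5 at 4 h and 250.0 ± 5.71 at 8 h, and was called higher at all 3 times.

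Cytosolic fructose-1,6-bisphosphatase (evm.TU.Ft2.3493), an entry step of sucrose synthesis, was called lower at all 3 times. It had 232, 246 and 259.5 FPKM at 0 h, 217, 211 and 211 at 2 h, 173, 179 and 179.7 at 4 h, and 61.3, 61.9 and 60.3 at 8 h, with a log2 fold change of -0.21 at 2 h, -0.47 at 4 h and -2.01 at 8 h. Cytosolic triose phosphate isomerase (evm.TU.Ft8.4244) averaged 697 ± 4.24 FPKM at 0 h, 568 ± 4.87 at 2 h, 373 ± 2.26 at 4 h and 264 ± 5.6 at 8 h, and fell at all 3 times. Cytosolic phosphoglycerate kinase (evm.TU.Ft8.4920) averaged 236 ± 5.98 FPKM at 0 h, 256 ± 1.47 at 2 h, 214 ± 4.03 at 4 h and 284 ± 5.56 at 8 h, and was higher than the control at 8 h by 1.2-fold. The cytoplasmic ribulose-phosphate 3-epimerase (evm.TU.Ft5.1064) averaged 27.5 ± 2.68 FPKM at 0 h, 34.7 ± 2.59 at 2 h, 37.3 ± 2.36 at 4 h and 40.3 ± 3.5 at 8 h, and was called higher at each time.

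**Figure D3:**
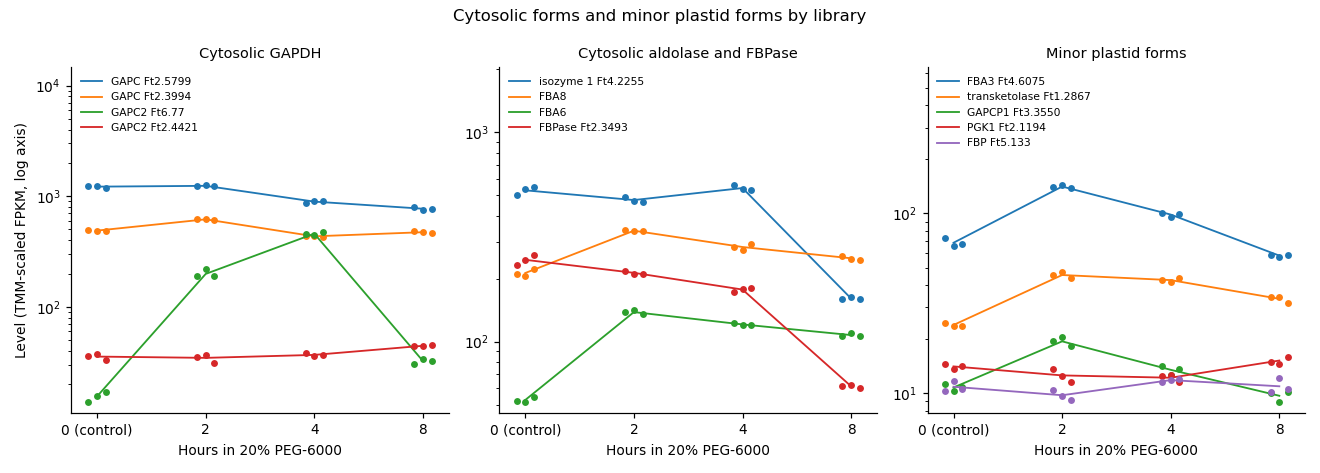
TMM-scaled FPKM on a log axis at 0, 2, 4 and 8 h (even spacing) of cytosolic dehydrogenases, of cytosolic aldolases and fructose-1,6-bisphosphatase, and of minor plastid genes, with 1 point per library and lines through the group means. GAPC2 evm.TU.Ft6.77 rises to 459 FPKM at 4 h and stands at 32.4 FPKM at 8 h, while isozyme 1 and the cytosolic bisphosphatase have their lowest levels at 8 h, 161 and 61.2 FPKM.

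Set against each other within each library, plastid and cytosolic forms of the same enzyme changed their balance. For aldolase, the summed FPKM of the 4 plastid genes was 4.46 ± 0.0891 times that of the 4 cytosolic genes at 0 h, 1.78 ± 0.0337 times at 2 h, 0.835 ± 0.0124 times at 4 h and 0.354 ± 0.0069 times at 8 h (SD, n = 3). For glyceraldehyde-3-phosphate dehydrogenase, 5 plastid genes (GAPCP1 included) and 8 cytosolic genes, the ratio was 2.39 ± 0.148 at 0 h, 1.09 ± 0.0325 at 2 h, 0.675 ± 0.0145 at 4 h and 0.364 ± 0.0145 at 8 h. For phosphoglycerate kinase it was 2.8 ± 0.12 at 0 h, 1.52 ± 0.0235 at 2 h, 1.23 ± 0.0408 at 4 h and 0.488 ± 0.0087 at 8 h. In these 3 enzymes the plastid forms were the more abundant at 0 h and the less abundant at 8 h.

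The larger change was in the plastid sum. For aldolase the plastid sum was 183 FPKM at 8 h, against 3540.3 FPKM at 0 h, and the cytosolic sum 518 FPKM at 8 h, against 793 FPKM at 0 h. For phosphoglycerate kinase the plastid sum was 139 FPKM at 8 h, against 660.5 FPKM at 0 h, and the cytosolic sum 284 FPKM at 8 h, against 236 FPKM at 0 h.

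The epimerase kept its plastid form ahead throughout, by 36.8 ± 3.77 times at 0 h, 17.7 ± 1.67 at 2 h, 10.3 ± 0.55 at 4 h and 4.1 ± 0.318 at 8 h. Triose phosphate isomerase was mainly cytosolic from the start, with ratios of 0.389, 0.322, 0.299 and 0.209 at 0, 2, 4 and 8 h. Fructose-1,6-bisphosphatase had ratios of 1.44, 1.02, 0.844 and 0.882 at 0, 2, 4 and 8 h, and so also had the plastid forms ahead at 0 h and behind at 8 h, while its cytosolic form fell as well. For each of these 6 enzymes the 3 libraries of every PEG time lay below all 3 control libraries. Such separation was common among single genes in these libraries. Of the 22063 genes tested, 7318 lay wholly below the control libraries at 2 h, 8524 at 4 h and 7801 at 8 h. Those wholly above numbered 7225, 7894 and 8262. Aspartate aminotransferase, which is no Calvin cycle enzyme, went the other way, with plastid to cytosolic ratios of 3.89, 4.39, 5.06 and 6.43 at 0, 2, 4 and 8 h.

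**Figure D4:**
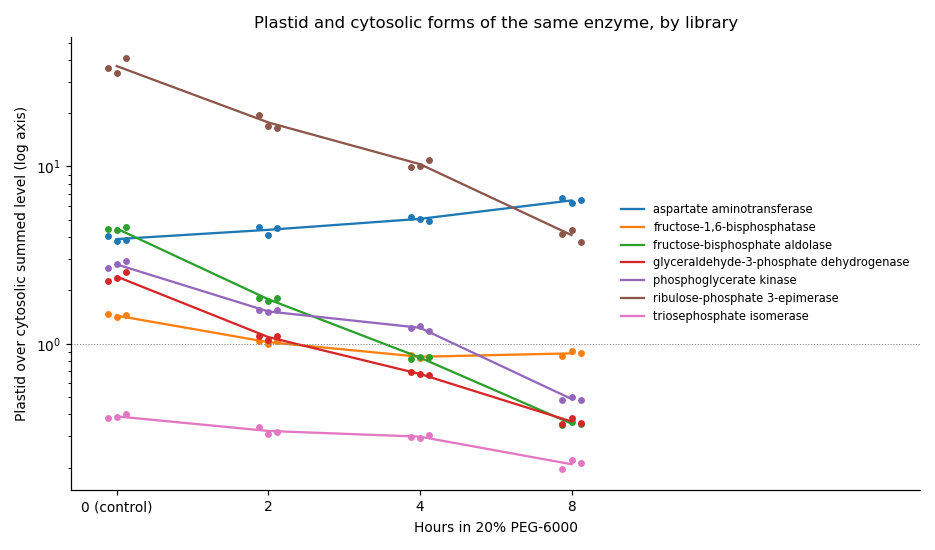
Ratio of the summed TMM-scaled FPKM of plastid genes to that of cytosolic genes of the same enzyme on a log axis at 0, 2, 4 and 8 h (even spacing), with 1 point per library and lines through the group means; the dotted line marks equal levels. Aldolase, glyceraldehyde-3-phosphate dehydrogenase, phosphoglycerate kinase and fructose-1,6-bisphosphatase cross that line between 0 and 8 h.

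Among C4-acid enzymes, phosphoenolpyruvate carboxylase, which fixes bicarbonate to form oxaloacetate, showed a change of the leading gene. PPC1 (evm.TU.Ft4.145) had 17.4, 15.3 and 15.3 FPKM at 0 h, 34.8, 36.2 and 37.6 at 2 h, 62.6, 64.0 and 65.2 at 4 h, and 170.0, 156 and 165 at 8 h, a 10.2-fold rise by 8 h. The other PPC1 (evm.TU.Ft6.2371) had 52.1, 49.3 and 53.7 FPKM at 0 h, 49.8, 59.2 and 63.8 at 2 h, 33.9, 30.8 and 34.1 at 4 h, and 10.2, 11.1 and 11.0 at 8 h, where it was 4.81-fold lower than at 0 h. At 2 h it was called higher by 0.16 on the log2 scale (edgeR adjusted p = 0.0126), although its libraries overlapped those of the control. The ratio of the first to the second was 0.31 ± 0.0241 at 0 h, 0.633 ± 0.0573 at 2 h, 1.95 ± 0.119 at 4 h and 15.2 ± 1.33 at 8 h. PPCC (evm.TU.Ft2.3343), the highest of the family at 0 h, averaged 87.7 ± 4.19 FPKM at 0 h, 52.3 ± 1.69 at 2 h, 47.2 ± 3.03 at 4 h and 54.2 ± 0.664 at 8 h. PPC2 (evm.TU.Ft8.4021) averaged 12.7, 31.5, 23.8 and 14.5 FPKM at 0, 2, 4 and 8 h and was called higher at each time, and so was PPC4 (evm.TU.Ft3.2580), which averaged under 2 FPKM in each group.

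Phosphoenolpyruvate carboxykinase runs the reaction from oxaloacetate to phosphoenolpyruvate, the first step of gluconeogenesis. PCK1 (evm.TU.Ft4.4877) had 4.54, 4.41 and 4.02 FPKM at 0 h, 11.9, 13.1 and 13.5 at 2 h, 128, 122 and 125 at 4 h, and 22.8, 19.8 and 21.5 at 8 h. The 4 h libraries stood far above all others, 28.9-fold over the control (log2 fold change 4.85 with a standard error of 0.060, edgeR adjusted p = 2.22e-40), and the gene fell by 2.55 on the log2 scale between 4 and 8 h.

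Pyruvate, phosphate dikinase makes phosphoenolpyruvate from pyruvate. Its main gene PPD (evm.TU.Ft5.1905) had 456, 468 and 459.9 FPKM at 0 h, 759, 782 and 787 at 2 h, 1362, 1315 and 1286 at 4 h, and 522, 533 and 526 at 8 h, so it too was highest at 4 h, and it moved by rank among all genes to 101 at 4 h, against 302 at 0 h. The other dikinase gene, PPD (evm.TU.Ft3.2374), averaged 111 ± 3.76 FPKM at 0 h, 88.7 ± 4.16 at 2 h, 102 ± 3.49 at 4 h and 35.3 ± 0.293 at 8 h, and was called lower at all 3 times. GAPC2 evm.TU.Ft6.77, PCK1 and the main dikinase gene thus shared a highest level at 4 h in all 3 libraries of that time. This was not particular to them. Other C4-acid enzyme genes had it too, among them ASP3, the cytoplasmic aspartate aminotransferase, ALAAT1 (evm.TU.Ft2.1010) and the malic enzyme evm.TU.Ft6.1785.

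**Figure D5:**
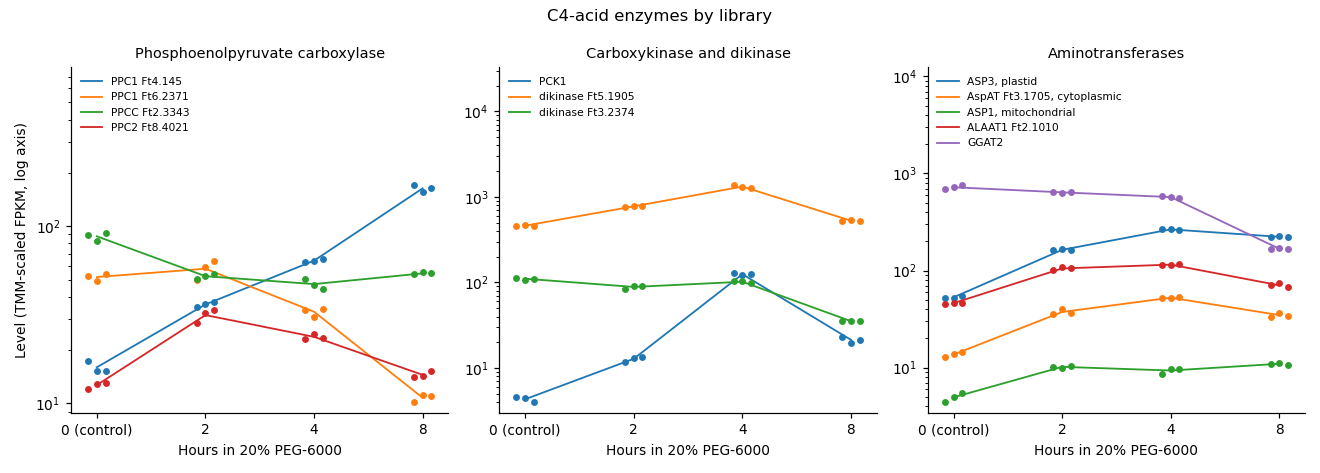
TMM-scaled FPKM on a log axis at 0, 2, 4 and 8 h (even spacing) of phosphoenolpyruvate carboxylases, of carboxykinase and dikinases, and of aminotransferases, with 1 point per library and lines through the group means. The lines of the PPC1 genes cross between 2 and 4 h, and PCK1 peaks at 125 FPKM at 4 h.

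The aminotransferases of aspartate rose in each of the 3 annotated compartments. ASP3 (evm.TU.Ft2.755), annotated as chloroplastic, had 51.8, 52.0 and 54.8 FPKM at 0 h, 162, 166 and 162 at 2 h, 268, 266 and 262 at 4 h, and 220.4, 225 and 222 at 8 h, a 5.02-fold rise at 4 h. The cytoplasmic aspartate aminotransferase (evm.TU.Ft3.1705) averaged 13.6 ± 0.752 FPKM at 0 h, 37.4 ± 2.75 at 2 h, 52.5 ± 0.746 at 4 h and 34.7 ± 1.58 at 8 h. The mitochondrial ASP1 (evm.TU.Ft8.3820) averaged 4.93 ± 0.491 FPKM at 0 h, 10.2 ± 0.152 at 2 h, 9.31 ± 0.711 at 4 h and 10.9 ± 0.224 at 8 h. Each of these was called higher at all 3 times.

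Alanine aminotransferase, ALAAT1 (evm.TU.Ft2.1010), was also higher at each time, with 46.1 ± 0.609 FPKM at 0 h, 105 ± 3.57 at 2 h, 115 ± 2.28 at 4 h and 70.4 ± 3.47 at 8 h. Its minor paralogue ALAAT1 (evm.TU.Ft3.1875) was called higher at 2 and 4 h and stayed under 8 FPKM. GGAT2 (evm.TU.Ft1.197), the photorespiratory aminotransferase, had 694, 718 and 753 FPKM at 0 h, 647, 629.6 and 641 at 2 h, 580.4, 569 and 564 at 4 h, and 167, 171 and 165 at 8 h. Most of its fall came between 4 and 8 h, where the log2 fold change was -1.77, beside -0.34 at 4 h against 0 h.

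Malate dehydrogenases, which interconvert malate and oxaloacetate, differed by compartment and gene. The NADP-dependent plastid enzyme, MDH1 (evm.TU.Ft5.1277), which exports reducing power from chloroplasts as malate, had 166, 165 and 157 FPKM at 0 h, 182, 189.6 and 179 at 2 h, 222, 223 and 223 at 4 h, and 324, 309.7 and 313 at 8 h. It was higher at each time, by 1.94-fold at 8 h. The glyoxysomal gene evm.TU.Ft8.431 averaged 431 ± 15.9 FPKM at 0 h, 246 ± 8.69 at 2 h, 201 ± 5.96 at 4 h and 142 ± 4.53 at 8 h, and MD1 (evm.TU.Ft7.752) averaged 429 ± 12.9 FPKM at 0 h, 339 ± 3.07 at 2 h, 235 ± 1.64 at 4 h and 206 ± 4.84 at 8 h.

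The other plastid malate dehydrogenases went down. The gene evm.TU.Ft4.2177 averaged 24.1 ± 1.43 FPKM at 0 h, 8.71 ± 0.938 at 2 h, 6.88 ± 0.25 at 4 h and 8.33 ± 0.653 at 8 h, called lower at each time. The gene evm.TU.Ft1.2323 averaged 37.0, 41.4, 21.2 and 24.7 FPKM at 0, 2, 4 and 8 h. Its call as higher at 2 h, by 0.16 on the log2 scale, was lost without the second control library (0.13, edgeR adjusted p = 0.0573), while its calls as lower at 4 and 8 h had log2 fold changes of -0.80 and -0.59. The mitochondrial MDH (evm.TU.Ft2.3355) averaged 141, 140.1, 95.3 and 96.9 FPKM at 0, 2, 4 and 8 h and was called lower at 4 and 8 h. MMDH (evm.TU.Ft8.4009) was called higher at each time, with 7.59, 11.0, 11.2 and 10.9 FPKM at 0, 2, 4 and 8 h. The glyoxysomal gene evm.TU.Ft5.911 averaged between 47.2 and 51.6 FPKM. It was called higher at 2 and 8 h, by 0.13 on the log2 scale at both (edgeR adjusted p = 0.0287 and 0.0285). MD1 (evm.TU.Ft3.1742) under 1 FPKM was never called against 0 h.

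Malic enzymes release CO2 from malate. The plastid genes MODA (evm.TU.Ft4.3073) and NADP-ME4 (evm.TU.Ft7.1428) were called lower at each time. MODA averaged 529 ± 22.2 FPKM at 0 h, 390.2 ± 23.8 at 2 h, 403 ± 5.96 at 4 h and 422 ± 7.09 at 8 h, whereas NADP-ME4 averaged 429 ± 4.36 FPKM at 0 h, 322 ± 6.67 at 2 h, 302 ± 7.43 at 4 h and 132 ± 1.71 at 8 h. A form without a stated location (evm.TU.Ft6.1785) averaged 87.5 ± 1.75 FPKM at 0 h, 137 ± 4.01 at 2 h, 163 ± 2.95 at 4 h and 91.4 ± 1.59 at 8 h, and was called higher at 2 and 4 h. Its change at 8 h, 0.06 and not called, became 0.21 and called with library totals alone.

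The largest log2 fold change upward among the 74 genes at 8 h belonged to a weakly expressed malic enzyme. The gene evm.TU.Ft8.133 had 0.171, 0.139 and 0.187 FPKM at 0 h, 0.6, 0.666 and 0.517 at 2 h, 1.72, 1.33 and 1.96 at 4 h, and 5.65, 7.24 and 4.83 at 8 h, a log2 fold change of 5.14 with a standard error of 0.23. The mitochondrial 62 kDa isoform (evm.TU.Ft2.3231) averaged 46.1, 42.1, 35.2 and 50.6 FPKM at 0, 2, 4 and 8 h, and the 59 kDa isoform (evm.TU.Ft7.3675) 34.4, 34.7, 29.2 and 32.0 FPKM. The remaining 3 tested malic enzyme genes averaged under 1 FPKM in every group. Of these, evm.TU.Ft6.3593 was called higher at 4 h only, with a log2 fold change of 1.11 and a standard error of 0.42. The gene evm.TU.Ft5.423 had at most 0.0156 FPKM in any library outside 4 h. It was tested only through its 4 h reads, so its call as higher at 4 h carries no weight. Both are among the 16 C4-acid enzyme genes counted as higher at 4 h, so that count includes a gene tested only through its 4 h reads. ME1 (evm.TU.Ft4.3320) was not called at any time against 0 h.

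Genes around the pathway that are not among the 98 were counted in the same fit. Photorespiration, which recycles the product of Rubisco's oxygenase reaction, had 5 of 27 genes higher and 19 lower at 2 h, 3 higher and 21 lower at 4 h, and 1 higher and 22 lower at 8 h. The background over all tested genes was 31.6% called higher and 31.7% called lower for 2 h, 35.1% and 37.7% for 4 h, and 36.4% and 34.5% for 8 h. Its most abundant genes differed in timing. The peroxisomal 2-hydroxy-acid oxidase (evm.TU.Ft1.2821), a glycolate oxidase type of enzyme, averaged 3104 ± 96.6 FPKM at 0 h, 1912 ± 21.5 at 2 h, 1491 ± 29.5 at 4 h and 516 ± 12.7 at 8 h. Serine-glyoxylate aminotransferase, AGT1 (evm.TU.Ft2.2236), averaged 2542 ± 51.6 FPKM at 0 h, 2794 ± 75.8 at 2 h, 2914 ± 61.4 at 4 h and 556 ± 7.8 at 8 h, and was called higher at 2 and 4 h and lower at 8 h.

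Rubisco assembly factors had 3 of 17 genes higher and 10 lower at 2 h, 4 higher and 10 lower at 4 h, and 6 higher and 9 lower at 8 h. The higher genes were 17.6% of the list at 2 h and 23.5% at 4 h, beside 31.6% and 35.1% of all tested genes. The lower genes were 58.8% at both times, beside 31.7% and 37.7%. The 6 higher at 8 h are 35.3% of the list, beside 36.4% of all tested genes, and the 9 lower are 52.9%, beside 34.5%. RBCX1 (evm.TU.Ft5.2), an assembly chaperone of the large chain, was higher at each time, with 72.3 ± 5.15 FPKM at 0 h, 173 ± 12.1 at 2 h, 285 ± 8.68 at 4 h and 168 ± 8.47 at 8 h. RBCX2 (evm.TU.Ft6.826) averaged 310.0 ± 4.61 FPKM at 0 h, 309 ± 14.6 at 2 h, 347 ± 10.1 at 4 h and 142 ± 1.94 at 8 h, and was called lower at 8 h.

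Among genes of regulation and exchange, 29 of 34 were tested, with 6 higher and 17 lower at 2 h, 6 higher and 19 lower at 4 h, and 7 higher and 18 lower at 8 h. The lower genes were 58.6% of those tested at 2 h, 65.5% at 4 h and 62.1% at 8 h, beside 31.7%, 37.7% and 34.5% of all tested genes. The higher genes were 20.7%, 20.7% and 24.1% at those times, beside 31.6%, 35.1% and 36.4%. CP12 proteins bind phosphoribulokinase and the plastid dehydrogenase in an inactive complex in the dark. CP12-2 (evm.TU.Ft5.370) had 695, 693 and 649 FPKM at 0 h, 1477, 1436 and 1417 at 2 h, 3236, 3242 and 2898 at 4 h, and 3042, 3092 and 3062 at 8 h. It was 4.6-fold higher at 4 h and 4.52-fold higher at 8 h than at 0 h. The other CP12 genes, named after their values were seen, moved differently. CP12-1 (evm.TU.Ft1.1754) was called lower at all 3 times, with 1503 ± 54.9 FPKM at 0 h, 947 ± 36.2 at 2 h, 918 ± 18.9 at 4 h and 918 ± 54.1 at 8 h. A further CP12-2 (evm.TU.Ft2.62) was called higher by small amounts, with log2 fold changes of 0.14, 0.44 and 0.18 at 2, 4 and 8 h. Chloroplast carbonic anhydrase (evm.TU.Ft3.1761), which interconverts CO2 and bicarbonate, averaged 4926 ± 276 FPKM at 0 h, 2957 ± 117 at 2 h, 2055 ± 23.1 at 4 h and 623 ± 43.8 at 8 h.

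Phosphoenolpyruvate carboxylase kinase activates the carboxylase by phosphorylation, and its 3 genes were 1 higher and 2 lower at 2 h, 2 lower at 4 h, and 2 higher and 1 lower at 8 h. For 2, 4 and 8 h in turn, the background share called higher was 31.6%, 35.1% and 36.4%. The share called lower was 31.7%, 37.7% and 34.5%. A list of 3 genes is too short to tell its counts from that background. PPCK1 (evm.TU.Ft3.4656) had 3.52, 3.04 and 2.98 FPKM at 0 h, 4.92, 5.91 and 4.33 at 2 h, 2.71, 4.22 and 4.08 at 4 h, and 46.5, 47.9 and 47.5 at 8 h. Its 14.9-fold rise at 8 h fell at the same time as the highest level of PPC1 evm.TU.Ft4.145. PPCK1 (evm.TU.Ft2.1783) averaged 24.4, 15.5, 17.1 and 13.2 FPKM at 0, 2, 4 and 8 h and was called lower at each time.

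The decline of the plastid genes continued between the later times. At 4 h against 2 h, 16 of the 74 genes were higher and 42 lower, against 26.3% higher and 26.9% lower among all tested genes, and 21 of the 26 plastid genes were lower with a median log2 fold change of -0.68. At 8 h against 4 h, 14 of the 74 were higher and 46 lower, against 33.8% higher and 31.7% lower among all tested genes, and 21 plastid genes were lower with a median of -1.03. These steps share the 4 h libraries with each other. Scaling by library totals alone moved the median of all tested genes for that last step to 0.26, beside 0.04 under TMM, and made 70.7% of all calls higher, beside 51.6%. At 4 h against 2 h it made 37.1% of all calls higher, beside 49.5%, with 14 of the 74 genes higher and 45 lower. At 8 h against 4 h, 19 of the 74 genes were higher and 39 lower under that scaling, with 1 plastid gene higher and 21 lower as before.

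Leaf and stem were extracted together, so fewer cells of a type and less RNA per cell cannot be told apart. Chlorophyll a-b binding protein genes, markers of green leaf tissue, were also lower than at 0 h, with 16 of 17 lower at 2 h, 15 lower and 1 higher at 4 h and 16 lower at 8 h. Among all tested genes 31.7%, 37.7% and 34.5% were lower at those times. At 4 h against 2 h they had 3 higher and 8 lower, beside 26.3% higher and 26.9% lower among all tested genes. Their median log2 fold change at that step was -0.07, beside -0.68 for the plastid Calvin cycle genes. At 8 h against 4 h they had 1 higher and 16 lower, beside 33.8% and 31.7% of all tested genes. Their median at that step was -2.29, beside -1.03. Against 0 h their medians were -0.63, -0.80 and -2.93 at 2, 4 and 8 h, beside -0.72, -1.34 and -2.50. The summed level of the chlorophyll a-b binding genes was 45863 to 49594 FPKM at 0 h, 25431 to 27554 at 2 h, 23011 to 23311 at 4 h and 4474 to 4754 at 8 h. Of 18 stem vascular markers 6 were higher at 2 h, 4 higher and 2 lower at 4 h and 14 higher at 8 h, beside 31.6%, 35.1% and 36.4% of all tested genes that were higher at those times. The counts at 2 and 4 h were near or below that background. These markers had a summed level of 299.9 to 321 FPKM at 0 h, 353 to 383 at 2 h, 414 to 422 at 4 h and 572 to 597 at 8 h. Of 4 Casparian strip genes, markers of root, 2 were tested, and the summed level was 2.74 to 4.56 FPKM at 0 h and 0.466 to 1.05 FPKM at 8 h. The part of tissue composition in the results above was not tested.

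The 24 genes that were not tested had at most 22 counted reads each over the 12 libraries. Besides the 12 large chain entries they were 3 cytosolic phosphoglycerate kinases, 2 dikinases, 2 alanine aminotransferases, 1 malate dehydrogenase, 1 cytosolic gene each for aldolase, fructose-1,6-bisphosphatase and glyceraldehyde-3-phosphate dehydrogenase, and the gene without a description. The tested plastid aldolase not described above, FBA3 (evm.TU.Ft6.2548), averaged under 1 FPKM in every group. It was called lower at 8 h against 0 h (log2 fold change -0.95, edgeR adjusted p = 0.0455), although its libraries overlapped those of the control. That call is among the 21 plastid genes counted as lower at 8 h.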

How the data were processed

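RNA-seq of 12 libraries gave raw counts for 26750 genes, deposited by the authors as whole numbers. FPKM values deposited by the authors equalled the count over library total and gene length, within a relative difference of 1.69e-07. All lengths were multiples of 3 and are called coding lengths. Per the submitters' processing notes, which give neither version nor role, fastp, HISAT2, HTSeq and DESeq2 were used. Build, annotation and strand setting are "not given in the sources used here".

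TMM factors were 0.936 to 1.10. The edgeR quasi-likelihood test (edgeR 4.0.16, R 4.3.3) was fitted once over the 12 libraries. Genes had first passed filterByExpr (minimum count 10, minimum total 15), which left 22063. Benjamini-Hochberg adjustment was made per contrast at a false discovery rate of 0.05. Levels are FPKM divided by the TMM factor. Standard errors are the log2 fold change over the root of F. Each library held 30468104 reads or more.

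Classes were set from deposited descriptions, without values. Named genes were, per enzyme and location, the most abundant (the most abundant pair where 3 or more were tested), and per time the 5 largest rises and falls with a mean of at least 5 FPKM. This gave 45 genes, and the other tested genes are given more briefly so that each is accounted for. Members, lists and gene pairs were chosen with earlier results of these data known. Alternatives were DESeq2 size factors, DESeq2 1.42.0, library totals alone, other filters, limma 3.58.1 on log2 FPKM, a replicate block, only the 6 libraries compared, and leaving out each library. The code was tested on simulated data.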

Additional observations from a re-analysis of the deposited data

How the results depend on the processing

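Most counts and calls were stable. Of the counts of genes recomputed under other settings, 632 were within 1.5 times the reported count and 18 were not. Leaving out a library, 779 were within it and 1 was not. That tolerance also passes large shifts. With library totals, 4711 of all tested genes were lower at 8 h against 4 h, beside 6993. The counts outside that tolerance were small, or were counts over all genes at 8 h against 4 h. Why they moved was not tested. Under a stricter filter (a mean of 5 CPM, and 1 CPM in at least 3 libraries), which tests fewer genes, carbon fixation genes higher by 2-fold numbered 8 at 4 h against 0 h, 2 at 4 h against 2 h and 1 at 8 h against 4 h, beside 13, 4 and 2, and plastid genes higher at 8 h numbered 1, beside 2. Leaving out 1 library gave 1 to 2 plastid genes higher at 8 h, with 1 without control library 3. With library totals alone, or limma on log2 of FPKM plus 1 or 0.1, 0 plastid genes were higher at 4 h against 2 h, beside 1 (FBP, evm.TU.Ft5.133), and 4 cytosolic forms were lower at 8 h against 4 h, beside 7. Limma on FPKM plus 1 also gave 2 carbon fixation genes higher by 2-fold at 4 h against 2 h, with or without a filter. For all genes at 8 h against 4 h, higher calls numbered 11351 with library totals and 11379 with limma without a filter, beside 7452, and lower calls 4469 and 4482 with limma plus 1 and 0.1, beside 6993.

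Changes that turned sign had not been called. Aldolase isozyme 1 (evm.TU.Ft4.2255) at 4 h was -0.03 with library totals and limma beside 0.04, and -0.00 (without control library 1) to 0.07 when 1 library was left out. GAPC evm.TU.Ft2.3994 at 8 h was 0.10 with library totals and limma, where it was called higher, and -0.06 with DESeq2, where it was called lower, beside -0.05. The malic enzyme evm.TU.Ft6.1785 at 8 h, not called at 0.06, was 0.21 and called higher with library totals and limma. MDH evm.TU.Ft2.3355 at 2 h was 0.01 under these settings, and -0.04 to 0.01 when 1 library was left out. RBCX2 evm.TU.Ft6.826 at 2 h was 0.01 under these settings, and -0.05 to 0.02 when 1 library was left out. The cause was not tested.

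Libraries of different groups share replicate numbers, but of 18 same-number pairs 0 had deviations from the group means correlated above 0.1 (-0.037 to 0.0243), so the numbers are not taken to pair samples. With the replicate block, PEG 8 h against 0 h gave the reported 22 carbon fixation genes higher and 39 lower, and no named call changed.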
